A study of Mus musculus with 9 samples.

Results

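The genes described here are 38 markers of Bergmann glia and astrocytes, given as a list of gene names. The list uses no measured value in its rule, but it was drawn up with earlier results of these data known. A gene was measured where a probe set of the array, a group of oligonucleotides that reads 1 transcript, carried that single gene symbol in the platform annotation. Of the 38, 37 were measured, among 19147 genes in all. Apoe, which encodes apolipoprotein E, is not analysed here because no probe set carried it as its single symbol. Where a gene had several probe sets, as 11 members did, the probe set with the highest mean over all arrays stood for the gene.

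Bergmann glia are the radial astrocytes of the cerebellum. Their cell bodies lie beside the Purkinje cells and their fibres cross the molecular layer to the pia, where they serve young granule neurons as a path for inward migration and wrap the synapses of Purkinje cells. Other astrocytes lie among the granule neurons and in the white matter. Both kinds of cell clear glutamate, buffer potassium and water and supply metabolites to neurons.

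The study profiled RNA from brains of C57BL/6 mice, cerebella of postnatal day 5 by the design text, on Affymetrix arrays. There were 3 groups of 3 arrays: wild type, SmoA2 mutant and Smo/Smo mutant. SmoA2 mice carry a transgene for an activated form of Smoothened, the signal transducer of the Sonic hedgehog (Shh) pathway. It was built like an earlier SmoA1 transgene, whose expression comes from a piece of the ND2 (Neurod2) promoter chosen for granule neuron precursors. Smo/Smo mutants are named so in the labels without further detail, and although the design text lists SmoA1 as the other mutant genotype, no label ties Smo/Smo to it. Wild type and SmoA2 animals share a code in their labels and Smo/Smo animals carry another, so that whatever this code stands for cannot be told apart from the Smo/Smo genotype. Replicates are numbered in the order of deposit, and each is a separately coded animal. The comparison asks how the glial genes of a cerebellum differ when Shh signalling is activated in neuronal precursors.

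Values are log2 intensities, in which a step of 1 is a doubling of brightness. Levels are compared between groups for 1 gene at a time, because brightness also depends on the probe. Array medians ran from 91.0 to 95.1 in linear intensity, and the correlation between arrays from 0.994 to 0.998. The Y-linked probe sets of the arrays read as female lay between 2.23 and 5.57, which serves as the background range. All 37 measured members stayed above that range on all 9 arrays, the lowest value being 6.36 for Gfap in SmoA2 replicate 2. The 13 Purkinje cell markers and 16 granule neuron progenitor markers measured each had a group mean above it too. Smo itself did not pass the test in SmoA2 (log2 fold change -0.17 ± 0.11 (SE), limma adjusted p = 0.545), and whether its probe set reads the transgene is not known. Gli1, a direct target of the pathway, rose by 0.50 in SmoA2 (adjusted p = 0.00801) and stood at 0.08 in Smo/Smo (0.825). Wild type replicate 3 had little choroid plexus RNA: Ttr, the transthyretin gene of that tissue, read 4.95 there, within the background range, and 11.26 to 12.14 on the other 8 arrays. On that array Kl (5.17), Cldn2 (5.39) and Kcne2 (5.31) were within the range too, and the other markers listed for that tissue above it. Since a whole tissue was measured, fewer glial cells and less RNA per glial cell cannot be told apart in any result below.

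In SmoA2 cerebella the extracellular matrix gene Tnc was lower than in wild type, and it was the only member of the list to pass the test. A gene was called where its limma p, adjusted by Benjamini-Hochberg across the 19147 genes, was under 0.05. By this rule 1 of 37 members fell and 0 rose, while 2.69% of all genes were called and 1.73% were called lower, so the share of members called, 2.7%, was near that of all genes. At an unadjusted p under 0.05 there were 8 members, all lower in SmoA2, which is 21.6% of members against 14.8% of all genes. The median log2 fold change of the members was -0.0383, against 0.00585 for all genes, and -0.00205 without SmoA2 replicate 1 or -0.0136 without SmoA2 replicate 3. In 12 members the 3 SmoA2 arrays and the 3 wild type arrays did not overlap, 10 of them lower and 2 higher in SmoA2. That is 32.4% of members, against 19.1% of all genes whose groups did not overlap. The 95% interval of the fold change lay inside ±0.5 on the log2 scale for 28 of 37 members, 75.7%, and for 85.0% of all genes. With an intensity trend and robust variance in limma 7 members were called, all lower, where 764 of the 19147 genes were called. With only the 2 groups compared 0 members and 235 of all genes were called.

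Set directly against Smo/Smo, SmoA2 cerebella had lower Tnc, lower Gpr37l1, an orphan receptor gene of astrocytes and Bergmann glia, and lower Hopx, a homeodomain gene of radial glia. These were the only 3 of 37 members called, with 0 higher, where 2.56% of all genes were called and 1.54% were called lower. At an unadjusted p under 0.05 stood 10 members, 9 lower and 1 higher, which is 27% of members against 14.3% of all genes. The median of the members was -0.131 (all genes -0.003), and 31 of 37 were below 0 (83.8%, all genes 51.1%). The groups did not overlap for 11 members, each lower in SmoA2, or 29.7% against 18.2% of all genes. This comparison and the one with wild type use the same SmoA2 arrays, so a high or low SmoA2 value enters both.

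No member was called in Smo/Smo against wild type in limma, where 0.371% of all genes passed. At an unadjusted p under 0.05 there were 7 members, 18.9% against 8.77% of all genes. Hopx, Timp4, Acsbg1, A2m, Clu and Slc4a4 stood above wild type among these 7, and Mt3 below. The median of the 37 was 0.0581 and that of all genes 0.00551. Below 0 stood 10 members (27%, all genes 47.8%). Without Smo/Smo replicate 3 the median of the 37 was 0.114. Values did not overlap in 10 members, 6 higher and 4 lower, or 27% against 15.9% of all genes.

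**Figure D1:**
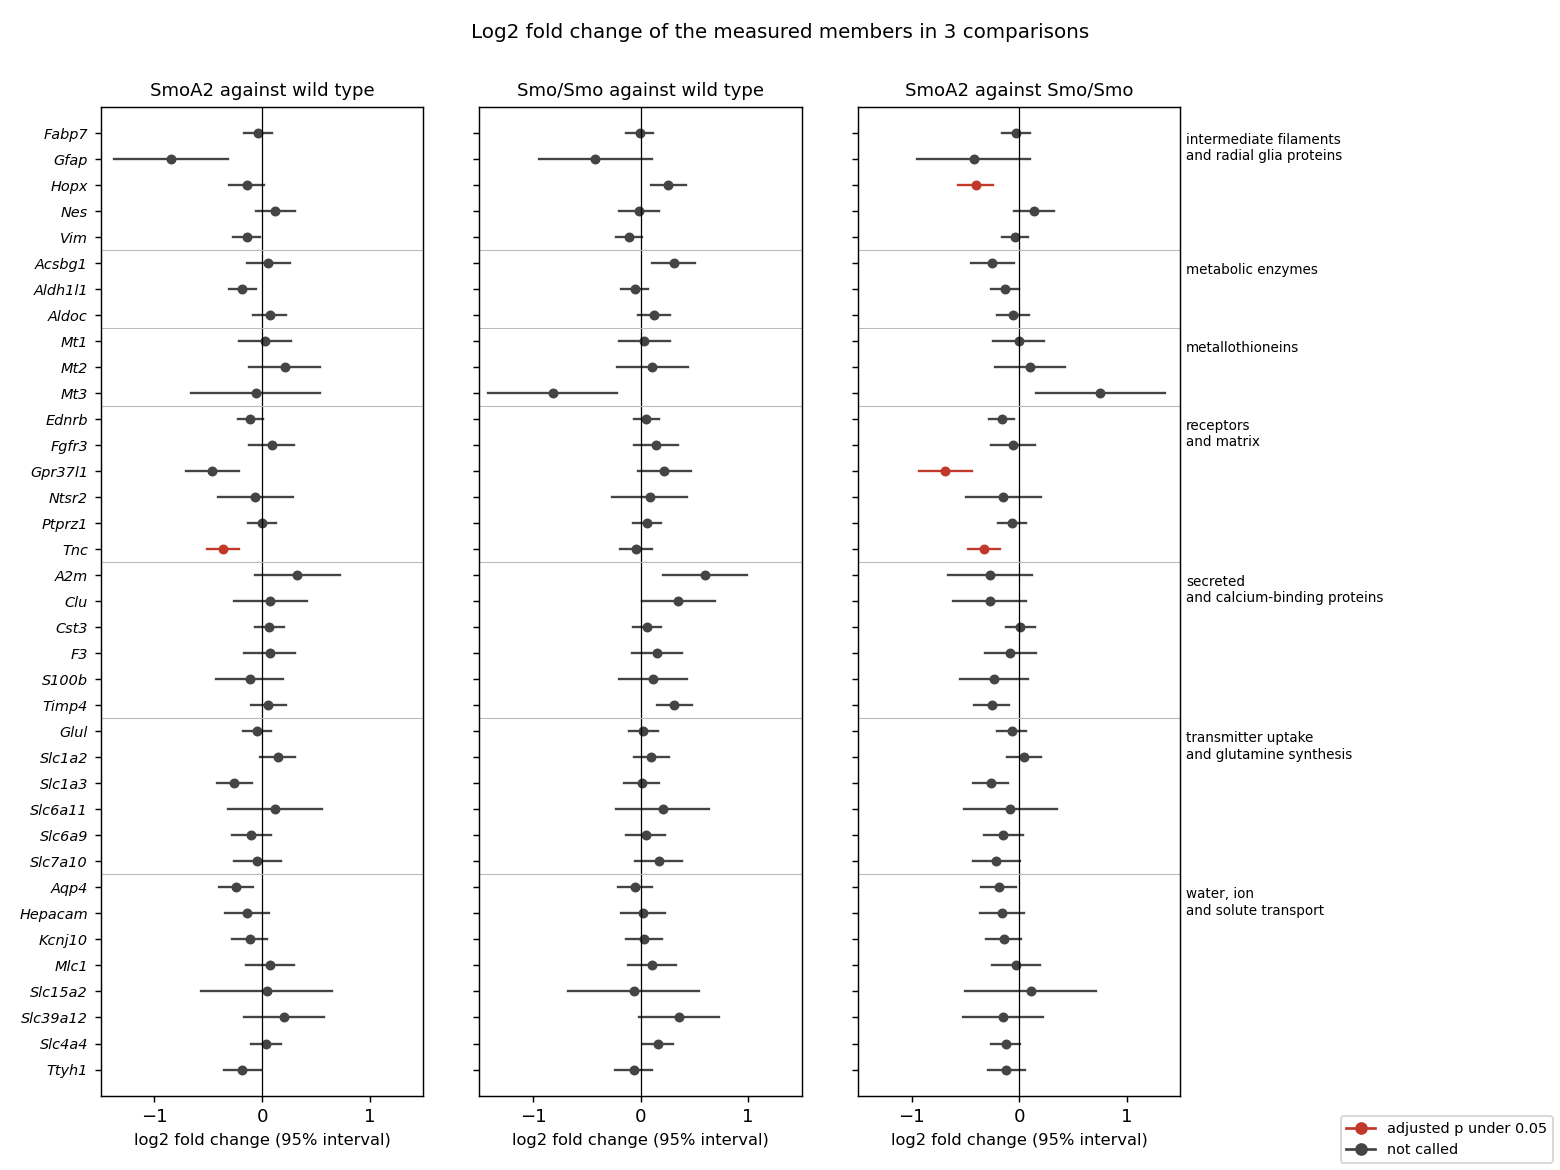
Log2 fold change of each measured member in the 3 comparisons, with its 95% interval from limma, grouped by role. Points in red passed the adjusted p of 0.05: Tnc in SmoA2 against wild type, and Hopx, Gpr37l1 and Tnc in SmoA2 against Smo/Smo; in that comparison 31 of the 37 points lie below 0, and Slc15a2, Mt3 and Gfap have wide intervals in all 3.

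Among receptors and matrix proteins, Tnc encodes tenascin C, a matrix glycoprotein that Bergmann glia and radial glia secrete along the paths of migrating neurons. Tnc read 12.39, 12.33 and 12.43 in wild type replicates 1 to 3, 12.08, 12.06 and 11.91 in SmoA2, and 12.30, 12.32 and 12.40 in Smo/Smo. All 3 SmoA2 arrays lay below the other 6, and the wild type and Smo/Smo arrays overlapped. It fell by 0.37 ± 0.07 on the log2 scale, or 1.29-fold, in SmoA2 against wild type (adjusted p = 0.0206) and by 0.32 ± 0.07, or 1.25-fold, against Smo/Smo (adjusted p = 0.0396). The fold change of Smo/Smo against wild type was -0.04 (adjusted p = 0.912). A second Tnc probe set gave -0.43 and -0.49 in the same comparisons (adjusted p = 0.0274 and 0.0169 over all probe sets). The call against wild type was lost without any 1 of the wild type arrays (adjusted p = 0.0527 to 0.0876), and the call against Smo/Smo without any 1 of the 9 arrays (up to 0.134). With sex as a covariate the limma adjusted p stood at 0.0523 and 0.0654. The fold change against Smo/Smo stayed at -0.32, as the sexes of these 2 groups are the same by Xist and Y-linked genes.

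Gpr37l1 encodes a G protein-coupled receptor of Bergmann glia that has been tied to Shh signalling in the postnatal cerebellum. Gpr37l1 read 9.87, 9.98 and 9.91 in wild type replicates 1 to 3, 9.55, 9.23 and 9.59 in SmoA2 and 10.25, 10.21 and 9.97 in the Smo/Smo group. SmoA2 was the lowest group with no overlap, and Smo/Smo replicate 3 lay within the wild type values while the other two Smo/Smo arrays lay above them. It fell by 0.68 ± 0.11, or 1.61-fold, in SmoA2 against Smo/Smo (adjusted p = 0.0131), a call lost without Smo/Smo replicate 1 or 2 (adjusted p = 0.0569 and 0.0650). Against wild type the difference was -0.46 ± 0.11 and did not pass (adjusted p = 0.0631), and Smo/Smo stood at 0.22 ± 0.11 (0.622).

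Hopx encodes a small homeodomain protein that marks radial glia and Bergmann glia. Hopx read 10.96, 10.998 and 11.08 on the wild type arrays, 10.82, 10.78 and 11.01 in SmoA2, and 11.31, 11.28 and 11.23 in Smo/Smo. The Smo/Smo arrays were the highest 3, and SmoA2 replicate 3 lay among the wild type values. It fell by 0.40 ± 0.07, or 1.32-fold, in SmoA2 against Smo/Smo (adjusted p = 0.0229), a call lost without SmoA2 replicate 1 or 2 or any 1 of the Smo/Smo arrays (up to 0.0922). Against wild type, SmoA2 stood at -0.14 ± 0.07 (adjusted p = 0.405) and Smo/Smo at 0.26 ± 0.07 (0.273).

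The 250 bases before the annotated start of these 3 called genes are shown because the study turns on the Gli factors of the Shh pathway, which bind DNA. The sequences come from RefSeq on GRCm38.p6, are written 5′ to 3′ on the strand of the gene and lie at chr1:135167682-135167931 for Gpr37l1, chr5:77115124-77115373 for Hopx and chr4:64046937-64047186 for Tnc, all on the minus strand. Hopx and Tnc have more than 1 annotated start. For Hopx the first in the table is printed, and for Tnc the second, chosen because it holds a motif; the other promoters of both hold none of the motifs searched. Capitals mark the 1 motif found, TGCCAA.
Gpr37l1: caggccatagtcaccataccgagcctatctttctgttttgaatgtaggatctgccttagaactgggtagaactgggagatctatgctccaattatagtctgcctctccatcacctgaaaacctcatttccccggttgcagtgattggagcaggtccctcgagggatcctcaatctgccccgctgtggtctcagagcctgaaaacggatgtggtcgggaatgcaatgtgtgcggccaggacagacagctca
Hopx: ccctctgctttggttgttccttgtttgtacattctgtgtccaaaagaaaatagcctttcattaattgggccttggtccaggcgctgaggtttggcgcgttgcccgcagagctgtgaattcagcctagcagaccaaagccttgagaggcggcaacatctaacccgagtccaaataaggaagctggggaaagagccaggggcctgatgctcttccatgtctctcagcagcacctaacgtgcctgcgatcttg
Tnc: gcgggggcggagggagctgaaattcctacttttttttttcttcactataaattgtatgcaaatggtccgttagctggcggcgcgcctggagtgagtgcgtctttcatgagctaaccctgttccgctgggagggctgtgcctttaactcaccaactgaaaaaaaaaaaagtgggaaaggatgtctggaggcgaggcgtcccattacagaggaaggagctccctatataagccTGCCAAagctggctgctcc
The Gli motif searched, GACCACCCA on either strand, is in 74 of 32851 promoters of this length (0.225%) and in 0 of the 44 promoters of the 35 listed members in the table, Apoe among them. The NFI motif TTGGCA, read on the other strand as TGCCAA, is in 7 of the 44 (15.9%) and in 12.3% of all. In the printed Tnc promoter it lies 19 bases before the start. The Sox motif CATTGT, on either strand, is in 1 of the 44 (2.27%) and in 10.7% of all. NFI and Sox factors act in glial differentiation, and a match to their letters is a description of the sequence only.

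Ednrb, the endothelin B receptor gene of astrocytes, read 12.69, 12.69 and 12.72 in wild type replicates 1 to 3, 12.61, 12.56 and 12.60 in SmoA2 and 12.71, 12.78 and 12.77 in the Smo/Smo group. The SmoA2 arrays were the lowest 3 by a small margin, and the differences of -0.11 ± 0.05 from wild type and -0.16 ± 0.05 from Smo/Smo did not pass (adjusted p = 0.357 and 0.164). Its other two probe sets stood at -0.32 and -0.22 in SmoA2 against wild type. The growth factor receptor gene Fgfr3 stood at 0.09 in SmoA2 and 0.14 in Smo/Smo against wild type. The neurotensin receptor gene Ntsr2 stood at -0.06 and 0.08, and Ptprz1, a receptor phosphatase gene of glial precursors, at 0.00 and 0.06 in the same order. None of these 4 was called, so that of the 6 members in this role Tnc alone passed against wild type, and Tnc and Gpr37l1 against Smo/Smo.

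**Figure D2:**
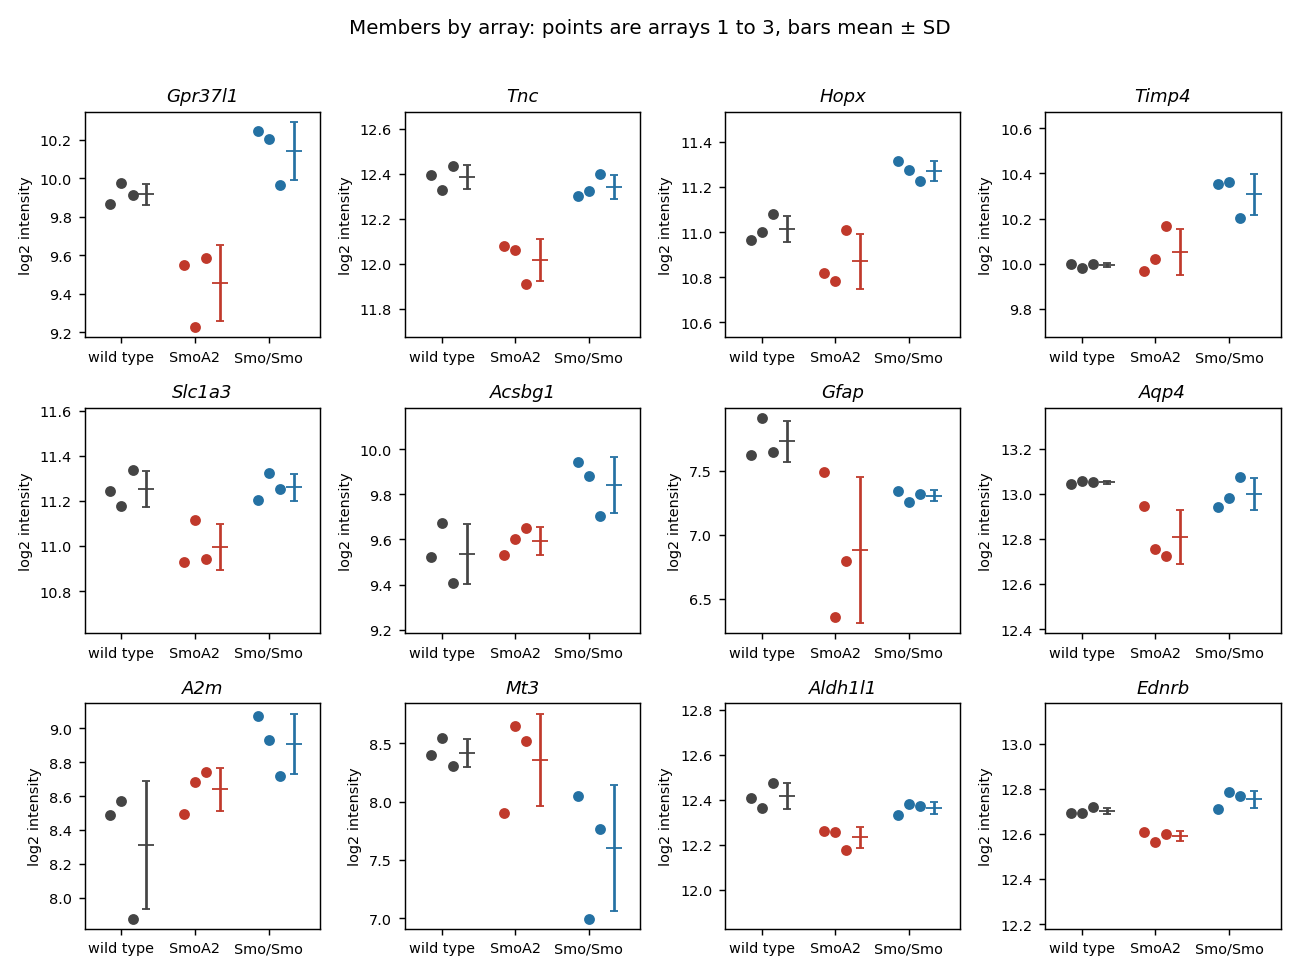
Log2 intensity of 12 members on each of the 9 arrays: points are replicates 1 to 3 of wild type, SmoA2 and Smo/Smo from left to right, and bars the mean ± SD (n = 3). For Tnc and Gpr37l1 the SmoA2 points lie below the other groups, for Hopx, Timp4 and Acsbg1 the Smo/Smo points lie above them, and for Gfap and Mt3 the points of a group lie far apart; each panel has an axis of its own.

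The intermediate filament and radial glia genes were not called in SmoA2 or Smo/Smo against wild type, 0 of 5 each. Gfap, the filament gene of mature and reactive astrocytes, read 7.62, 7.91 and 7.65 in wild type replicates 1 to 3, 7.49, 6.36 and 6.80 in SmoA2 and 7.34, 7.26 and 7.32 in the Smo/Smo group. Every mutant array lay below the wild type arrays, but the SmoA2 values were spread over more than 1 log2 step, with replicate 1 close to wild type. The SmoA2 difference of -0.85 ± 0.23 did not pass (adjusted p = 0.110), and it was called at -1.15 without SmoA2 replicate 1 (adjusted p = 0.00787). In Smo/Smo the difference was -0.42 ± 0.23 (adjusted p = 0.675). Vim, the vimentin gene of radial glia and many other cells, stood at -0.14 in SmoA2 and -0.11 in Smo/Smo against wild type, with no overlap between either mutant and wild type and no call (adjusted p = 0.254 and 0.649). Fabp7, the brain lipid-binding protein gene and a classic marker of Bergmann glia, stood at -0.04 in SmoA2 (95% interval -0.17 to 0.09) and -0.01 in Smo/Smo (-0.14 to 0.12). These intervals bound the signal of the Fabp7 probe set in whole tissue, given the spread between arrays, and not Fabp7 RNA per glial cell. Nes, the nestin gene of neural stem cells and radial glia, stood at 0.12 in SmoA2 and -0.02 in Smo/Smo.

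The genes of transmitter uptake and glutamine synthesis gave 0 calls among 6 in each of the 3 comparisons. Slc1a3 encodes GLAST, the main glutamate transporter of Bergmann glia, and read 11.24, 11.18 and 11.34 in wild type replicates 1 to 3, 10.93, 11.11 and 10.94 in SmoA2 and 11.20, 11.32 and 11.25 in the Smo/Smo group. The SmoA2 arrays were the lowest 3, and wild type and Smo/Smo overlapped. The differences of SmoA2, -0.26 ± 0.07 from wild type and -0.27 ± 0.07 from Smo/Smo, did not pass (adjusted p = 0.122 and 0.109). Slc1a2, which encodes the other glial glutamate transporter GLT-1, stood on the other side at 0.15 in SmoA2 and 0.10 in Smo/Smo against wild type. All 5 of its probe sets were above 0 in both, from 0.15 to 0.54 in SmoA2 and from 0.10 to 0.36 in Smo/Smo, and none of the 5 was called in the fit of all probe sets (adjusted p = 0.067 to 0.418 in SmoA2). The group means of 1 of the 5 lay within the background range. Glul, the glutamine synthetase gene, stood at -0.05 and 0.02. The GABA transporter gene Slc6a11 stood at 0.12 and 0.20, the glycine transporter gene Slc6a9 at -0.10 and 0.05, and the amino acid transporter gene Slc7a10 at -0.04 and 0.17, SmoA2 first.

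Among 8 genes of water, ion and solute transport, 0 were called in any of the 3 comparisons. Aqp4 encodes the water channel of astrocyte endfeet and read 13.04, 13.06 and 13.05 in wild type replicates 1 to 3, 12.95, 12.75 and 12.72 in SmoA2 and 12.94, 12.98 and 13.08 in the Smo/Smo group. The wild type arrays lay within 0.02 of each other, and all 3 SmoA2 arrays were below them. Its difference in SmoA2 was -0.24 ± 0.07 (adjusted p = 0.141). The probe sets disagreed in size: the second fell by 0.52 in a fit of all probe sets (adjusted p = 0.0368), and the mean of both fell by 0.38 (adjusted p = 0.0327). Ttyh1, a chloride channel gene of glial processes, stood at -0.18 in SmoA2 (adjusted p = 0.304) and -0.06 in Smo/Smo. The potassium channel gene Kcnj10 stood at -0.11 and 0.03, SmoA2 first. Hepacam and Mlc1, whose products lie together in astrocyte junctions, stood at -0.14 and 0.02, and at 0.08 and 0.10. The bicarbonate cotransporter gene Slc4a4 read 0.04 above wild type in SmoA2 and 0.16 above it in Smo/Smo, where all 3 arrays lay above wild type (adjusted p = 0.478). The zinc transporter gene Slc39a12 stood at 0.20 and 0.35, with 8.01 in wild type replicate 3 against 8.44 and 8.51 in the other two, and at 0.05 and 0.20 without that array. The peptide transporter gene Slc15a2 varied in each group, from 9.45 to 10.22 in wild type, so its differences of 0.04 and -0.06 carried a standard error of 0.27.

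Of the metabolic enzymes, 0 of 3 were called in each comparison. Aldh1l1, the folate enzyme widely used to mark astrocytes, read 12.41, 12.37 and 12.48 in wild type replicates 1 to 3, 12.26, 12.26 and 12.18 in SmoA2 and 12.33, 12.38 and 12.37 in the Smo/Smo group. SmoA2 was lowest with no overlap, by -0.18 ± 0.06 from wild type (adjusted p = 0.152). Acsbg1, an acyl-CoA synthetase gene of astrocytes, read 9.52, 9.67 and 9.41 in wild type replicates 1 to 3, 9.53, 9.60 and 9.65 in SmoA2 and 9.94, 9.88 and 9.70 in the Smo/Smo group. Here Smo/Smo was the group apart, by 0.31 ± 0.09 from wild type (adjusted p = 0.290), and SmoA2 overlapped wild type at 0.06. Aldoc, the aldolase of Bergmann glia and of a subset of Purkinje cells, stood at 0.07 in SmoA2 and 0.12 in Smo/Smo.

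Secreted and calcium-binding proteins gave 0 calls among the 6 measured. In Smo/Smo all 6 were above wild type, with a median of 0.234, where 10000 of all 19147 genes were above. Timp4, an inhibitor of matrix metalloproteinases, read 9.998, 9.98 and 9.999 in wild type replicates 1 to 3, 9.97, 10.02 and 10.16 in SmoA2 and 10.36, 10.36 and 10.20 in the Smo/Smo group. Smo/Smo did not overlap the other groups, and its difference from wild type was 0.31 ± 0.07 (adjusted p = 0.161). A2m, the gene of the protease inhibitor alpha-2-macroglobulin, read 8.49, 8.57 and 7.88 in wild type replicates 1 to 3, 8.49, 8.68 and 8.74 in SmoA2 and 9.07, 8.93 and 8.72 in the Smo/Smo group. Wild type replicate 3, the array with little choroid plexus RNA, was the lowest of the 9. The A2m difference of Smo/Smo was 0.60 ± 0.17 (adjusted p = 0.305) and 0.38 without that array (0.322). Clu, which encodes the chaperone clusterin, stood at 0.35 in Smo/Smo (adjusted p = 0.560) and 0.07 in SmoA2, and wild type replicate 3 was its lowest array as well, at 10.14 against 10.48 and 10.77. Without that array Clu stood at 0.19 in Smo/Smo and -0.09 in SmoA2. Wild type replicates 1 and 2 also read lower for Ttr, at 11.39 and 11.26, than the mutant arrays, at 11.74 to 12.14. Beyond these values without that array, the part of choroid plexus RNA in these values was not tested. S100b, a calcium-binding protein gene of Bergmann glia, stood at -0.12 in SmoA2 and 0.12 in Smo/Smo, and its second probe set at 0.08 and 0.12. The protease inhibitor gene Cst3 stood at 0.07 and 0.06, and F3, the tissue factor gene, at 0.07 and 0.15.

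Metallothioneins bind zinc and copper, and 0 of 3 were called in each comparison. Mt3, the brain metallothionein, read 8.40, 8.55 and 8.31 in wild type replicates 1 to 3, 7.91, 8.65 and 8.52 in SmoA2 and 8.04, 6.997 and 7.77 in the Smo/Smo group. The Smo/Smo arrays lay below the wild type arrays and spread over 1 log2 step, and the difference was -0.82 ± 0.27 (adjusted p = 0.397). Mt3 was the 1 member with an unadjusted p under 0.05 that stood higher in SmoA2 than in Smo/Smo, by 0.75 ± 0.27 (adjusted p = 0.224). Without Smo/Smo replicate 2 these differences were -0.51 and 0.45. Mt1 stood at 0.03 in both mutants, and Mt2 at 0.21 in SmoA2 and 0.11 in Smo/Smo. Their coding sequences are alike, and whether their probe sets share signal was not tested.

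Taking only the order of the 3 group means, 31 of 37 members were lower in SmoA2 than in Smo/Smo (83.8%, all genes 51.1%). For 12 members SmoA2 was lowest and Smo/Smo highest with wild type between (32.4%, all genes 16.5%), and for another 12 wild type was lowest and Smo/Smo highest (32.4%, all genes 15.8%). SmoA2 was lowest and wild type highest for 7 (18.9%, all genes 18.8%). The remaining 6 had Smo/Smo lowest or SmoA2 highest. A second probe set stood on the other side of 0 in SmoA2 against wild type for S100b, Glul (0.15), Hepacam (0.01) and Slc15a2 (-0.14), none of them called, so the direction of these small differences depends on the probe set.

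**Figure D3:**
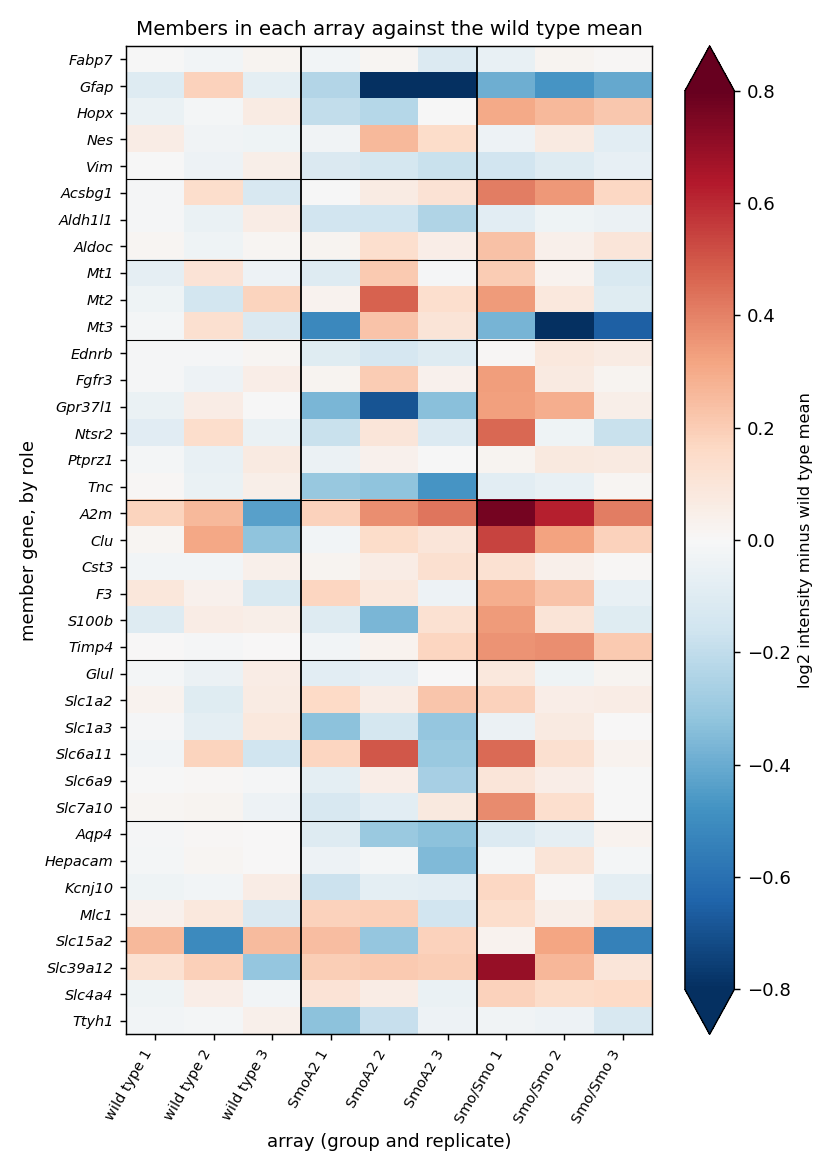
Difference of each measured member on each of the 9 arrays from the wild type mean, on the log2 scale, with members in rows by role and arrays in columns. Many members are above the wild type mean on Smo/Smo replicate 1, whose median over the 37 is 0.16, and closer to it on Smo/Smo replicate 3, whose median is 0.01.

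The members did not stand alike on the 3 Smo/Smo arrays. Their median difference from the wild type mean was 0.164 on replicate 1, 0.0733 on replicate 2 and 0.00818 on replicate 3. Replicate 1 was the highest of its group for 25 of 37 members (67.6%, all genes 38.5%) and replicate 3 the lowest for 21 (56.8%, all genes 38.6%). By Xist and Y-linked genes replicate 1 was female and replicates 2 and 3 male, as in SmoA2, while in wild type replicate 2 alone was male. With sex as a covariate, 0 members were called in Smo/Smo against wild type, as without it, with a median of 0.07. In SmoA2 against Smo/Smo, where sex is balanced, 2 were called (338 of all 19147 genes) and the median stayed at -0.131. With Smo/Smo replicate 1 left out, the median of SmoA2 against Smo/Smo was -0.0812 in place of -0.131. In that fit 25 of 37 members were below 0 and 0 were called, where 219 of all 19147 genes were. On the SmoA2 arrays the medians were -0.0468, 0.0369 and -0.0116. Within groups the median SD of the members was 0.056 for wild type, 0.107 for SmoA2 and 0.0814 for Smo/Smo arrays, where all genes had 0.0838, 0.110 and 0.0833.

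A second list of 49 genes of Bergmann glia and astrocytes, of which 42 were measured, held more calls than the members. This list includes genes already known to have changed in these samples, so its counts are no independent evidence. In SmoA2 against wild type 8 fell and 2 rose, 23.8% of the 42, where 2.69% of all genes were called. The median was -0.0809 (all genes 0.00585). Against Smo/Smo 7 fell and 0 rose (16.7%, all genes 2.56%). In Smo/Smo against wild type 0 of 42 were called in limma (all genes 0.371%). At an unadjusted p under 0.05 there were 6 of 42, where 8.77% of all genes stood.

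Gria1, an AMPA receptor subunit gene of Bergmann glia and neurons, read 11.19, 11.13 and 11.25 in wild type replicates 1 to 3, 10.53, 10.42 and 10.63 in SmoA2 and 11.25, 11.18 and 11.21 in the Smo/Smo group. It fell by 0.66 against wild type (adjusted p = 0.00142) and by 0.68 against Smo/Smo (0.00174). Gdf10, which encodes a growth factor of the BMP family, fell by 0.59 and 0.55 (adjusted p = 0.00156 and 0.00282). Wif1, which encodes a secreted Wnt inhibitor, fell by 1.21 and 1.00 (adjusted p = 0.00142 and 0.00429), and its SmoA2 replicate 3 at 5.39 lay within the background range, so the size of this fall is uncertain there. For these 3 genes the SmoA2 arrays lay below the other 6 with a wide gap. Gjb6, the gene of the astrocyte gap junction protein connexin 30, fell by 0.95 against wild type (adjusted p = 0.00701) and stood at -0.61 against Smo/Smo (0.0507). The metabotropic glutamate receptor gene Grm3 fell by 0.40 against wild type and 0.42 against Smo/Smo (adjusted p = 0.0122 and 0.0113). Lcat, whose product esterifies cholesterol on lipoproteins, fell by 0.41 and 0.61 (adjusted p = 0.0247 and 0.00429). The calls against wild type were lost without wild type replicate 1 or 2 for Grm3 (adjusted p up to 0.058), and for Lcat without any 1 wild type array or SmoA2 replicate 1 or 3 (up to 0.0954). Grm3 lost its call against Smo/Smo without Smo/Smo replicate 2 (0.0633). Dio2, a thyroid hormone deiodinase gene, fell by 0.80 against Smo/Smo (adjusted p = 0.00969), and the growth factor receptor gene Fgfr2 by 0.46 (0.031). Against wild type Dio2 stood at -0.53 and Fgfr2 at -0.38, without overlap, and neither passed (adjusted p = 0.05047 and 0.05935). Both are named here after their values were seen. The genes that rose against wild type were Etv5, a transcription factor gene downstream of growth factor signalling, by 0.35 (adjusted p = 0.0172) and Psat1, an enzyme gene of serine synthesis, by 0.37 (0.0239). Etv5 lost its call without SmoA2 replicate 1, and without replicate 1 or 2 of wild type (up to 0.0769), and Psat1 without any 1 wild type array or SmoA2 replicate 1 (up to 0.105).

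**Figure D4:**
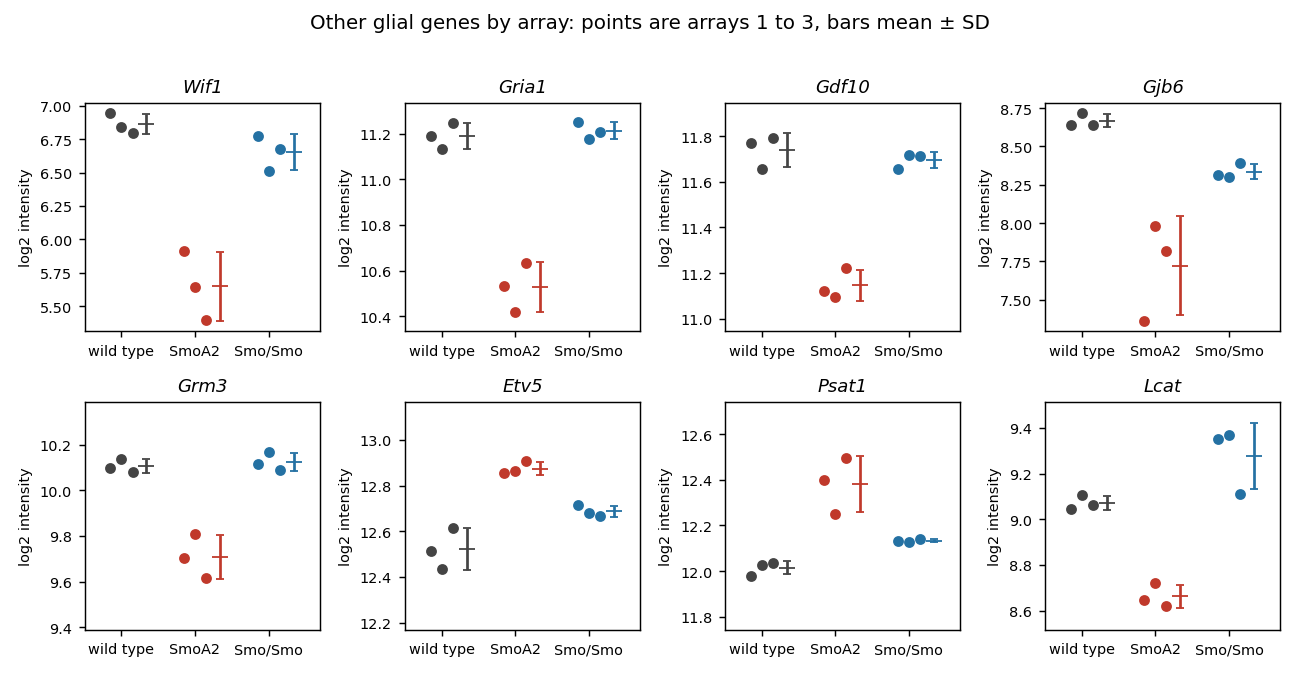
Log2 intensity of 8 other glial genes on the 9 arrays, with points for replicates 1 to 3 and bars for the mean ± SD (n = 3). SmoA2 points lie below both other groups for Wif1, Gria1, Gdf10, Gjb6, Grm3 and Lcat and above them for Etv5 and Psat1; each panel has an axis of its own.

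Markers of other cell types also differed between the groups. Of all 19147 genes, 331 were called lower and 184 higher in SmoA2 against wild type. Each sum below adds the linear intensities of a list before log2 is taken, so its brightest probe sets weigh most. The summed level of 18 meningeal and fibroblast markers ran from 14.76 to 14.78 log2 in wild type, 14.17 to 14.53 in SmoA2 and 14.67 to 14.71 in Smo/Smo. Of the 18, 11 were called lower in SmoA2 against wild type. The 13 Purkinje cell markers summed to 14.98 to 15.05 in wild type, 14.58 to 14.74 in SmoA2 and 14.99 to 15.03 in Smo/Smo, with 5 called lower in SmoA2. Choroid plexus markers summed to 11.002 to 12.69, 13.10 to 13.34 and 13.37 to 13.57 in the same order. All 11 were higher without overlap in each mutant, where 19.1% of all genes did not overlap in SmoA2 and 15.9% in Smo/Smo. At an unadjusted p under 0.05 stood 10 in SmoA2 and 9 in Smo/Smo (all genes 14.8% and 8.77%), and 0 were called. Replicate 3 widened the wild type spread of most of these markers (SD 3.68 for Ttr), but not of Otx2 (SD 0.07). The part of this spread in the lack of calls was not tested. Endothelial and mural cell markers summed to 13.03 to 13.09, 12.91 to 12.96 and 13.14 to 13.20, with 2 of 15 called lower in SmoA2. Of 12 microglial and macrophage markers, 9 stood above 0 in SmoA2 against wild type (all genes 9985 of 19147), with a median of 0.219. The 1 call, Mrc1, a macrophage gene, fell. Against Smo/Smo, where 2.56% of all genes were called, Aif1, P2ry12 and Trem2 were called higher in SmoA2 and Mrc1 lower. In SmoA2 against wild type, oligodendrocyte lineage markers had 0 of 11 called and ependymal markers 2 of 6 called lower. Granule neuron progenitor markers had 6 of 16 called higher. Of the 37 members, 16 are also strongly expressed in such cells, Tnc and Vim among them. With those left out, 0 of 21 members were called in SmoA2 against wild type, because Tnc, the only call, is left out. In SmoA2 against Smo/Smo 2 were called, Gpr37l1 and Hopx. These counts drop genes from the list without a new fit. The part of these other cells in the glial values was not tested.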

How the data were processed

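RNA of 9 cerebella was measured on 9 arrays. Per the submitters' processing notes the authors summarised the probes with RMA. The deposited values are linear intensities, although log2 values had been assumed, so log2 was taken here. Of 38385 probe sets, 24478 carry a single symbol in the platform annotation, 65 several and 13842 none. Each gene was read by its brightest probe set on average, for 19147 genes. A model with 1 mean per group and no covariate was fitted to all 9 arrays with limma 3.58.1 (lmFit and eBayes) in R 4.3.3, and p-values were adjusted by Benjamini-Hochberg over all genes; errors are its standard errors. On simulated data for SmoA2 against wild type (19147 genes, 10 runs, 200 changed genes) it recovered 56.5% of the genes shifted by 0.5 log2 and 92.7% of those shifted by 1 log2, with 5.05% false calls. With 3 arrays per group their number limits the precision.

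The members and gene lists were chosen with earlier results of these data known. Values array by array are given for the members called in any comparison and for those with the next smallest p of the F test over the groups, 12 in all. From the other glial genes, called genes are named, at most 8 by smallest p in SmoA2 against wild type. Alternatives were the mean of all probe sets, every probe set tested, a filter on low values (above the 30th percentile), quantile normalization, centred medians, an intensity trend with robust variance, array weights, a fit of only the 2 groups compared, sex as a covariate, an adjusted p under 0.01, fewer members and fewer arrays. Promoter sequences and motif counts used Python 3.11.15, and plots matplotlib 3.10.9.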

Additional observations from a re-analysis of the deposited data

Results flagged for a closer look

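SmoA2 and Smo/Smo differed from each other for 3 members in limma (3 arrays per group, adjusted over all genes). That is 8.11% of members, where 2.56% of all genes were called. The Smo/Smo animals carry a label code of their own, and whatever it stands for cannot be told apart from their genotype. Gpr37l1 stood at -0.68 (adjusted p = 0.0131), Hopx at -0.40 (0.0229) and Tnc at -0.32 (0.0396). For each, all 3 SmoA2 arrays lay below all 3 Smo/Smo arrays. The calls were not firm. With 1 array left out at a time, Tnc lost its call in 9 of 9 fits, Hopx in 5 and Gpr37l1 in 2. With only the 2 groups compared 0 members were called.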

How the results depend on the processing

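The count of members called in SmoA2 against wild type, 1 in the model described, was 2 with the mean of all probe sets (Aqp4 and Tnc), 2 with low values removed and 2 with array weights (Gpr37l1 and Tnc in each). It was 7 with an intensity trend and robust variance (Aldh1l1, Aqp4, Gfap, Gpr37l1, Slc1a3, Tnc and Vim, all lower). It was 0 with only the 2 groups compared, with sex as a covariate and at an adjusted p under 0.01. Without the members strong in other cell types, which include Tnc, it was 0 by that choice of genes. With 2 arrays out at a time (wild type replicate 3, SmoA2 replicate 3) it was 0 as well. Leaving out 1 array at a time gave 0 to 2, with 0 without wild type replicate 1, 2 or 3 and 2 (Gfap and Tnc) without SmoA2 replicate 1. In Smo/Smo against wild type the count was 1 with array weights (Timp4) and 0 otherwise, leave-one-out fits included. The median there, 0.0581, ran from 0.0369 without Smo/Smo replicate 1 to 0.114 without Smo/Smo replicate 3. With 1 array left out at a time, the median of SmoA2 against wild type, -0.0383, ran from -0.0384 to -0.00205, and that of SmoA2 against Smo/Smo, -0.131, from -0.156 to -0.0812. Without the members strong in other cell types the medians were -0.0607 and -0.153. In SmoA2 against Smo/Smo, 3 in the model described, the count was 6 with trend and robust variance (Ednrb, Gpr37l1, Hopx, Slc1a3, Timp4 and Tnc), 0 with only the 2 groups compared and 0 at an adjusted p under 0.01. Leaving out 1 array gave 0 to 2, with 0 without Smo/Smo replicate 1 or 2 and 1 (Gpr37l1) without SmoA2 replicate 1 or 2 or Smo/Smo replicate 3. The cause of these differences was not tested, beyond the fewer arrays or the stricter threshold. Calls over all genes went from 515, 71 and 490 to 235, 42 and 231 with only the 2 groups compared. In the same order they were 764, 106 and 795 with trend and robust variance, and 588, 162 and 603 with array weights. In SmoA2 against wild type they were 504 with the mean of all probe sets, and 739 of 13403 genes with low values removed. No called value reversed its direction. Gria1, Gdf10 and Wif1 kept their calls against wild type and against Smo/Smo under all 20 alternatives run for single genes. Calls against wild type were lost under 8 of the 20 for Lcat, 8 for Psat1, 5 for Etv5 and 5 for Grm3, and under 3 for Grm3 against Smo/Smo. Gjb6 lost its call against wild type only with those 2 arrays out (adjusted p = 0.0648). Replicate numbers follow the order of deposit and pair no animals. No paired analysis was possible. Wild type and SmoA2 labels share a code, but no label says what it stands for or pairs single animals.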
